A study of Mus musculus with 8 samples.

Results

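The genes described here are 10 mouse genes of the antiviral interferon response. They are the IFIT genes Ifit1, Ifit2, Ifit3 and Ifit3b, the ISG15 pathway genes Isg15, Usp18, Uba7 and Herc6, and the viperin gene Rsad2 with its chromosomal neighbour Cmpk2. They were taken by symbol out of the 54752 genes in the count tables, and all 10 passed the filter on low counts. The members were chosen by their measured fold changes between BCAS and sham mice: most of them because they were higher in BCAS mice, and Cmpk2 and Herc6 because they hardly differed while related genes did. Their differences between the groups are therefore given as a description, without a test.

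RNA-seq was run on the right cerebral cortex of 8 wild-type male C57BL/6 mice (C57BL/6 J in the methods) at 14 weeks of age, 3 weeks after surgery, with 1 mouse per library. In 4 mice, bilateral carotid artery stenosis (BCAS) was made by placing a microcoil around each common carotid artery, the narrower one on the right, so that less blood reaches the brain. The 4 sham mice had the same operation without microcoils. Both groups were wild type and housed alike, and the comparison asks which cortical transcripts differ after chronic cerebral hypoperfusion. The sampled side is that of the narrower microcoil, and the tissue was taken whole, with all its cell types.

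Interferons bind receptors on the cell surface, and Janus kinases then activate transcription factors that bind short repeated elements in the promoters of interferon-stimulated genes. IFIT proteins bind viral RNA that lacks the marks of host messenger RNA. ISG15 is a small ubiquitin-like protein that is attached to other proteins by an enzyme chain and removed by USP18, and viperin turns the nucleotide CTP into a chain terminator of viral polymerases.

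Because the members differ in how far their levels moved, the letters upstream of their transcript starts are shown before the values. The promoter windows were from RefSeq on GRCm38.p6, with 250 bases before and 50 bases after each start, and 9 of the 10 genes had a window; Usp18 had no entry. Both strands were searched for the motif GAAANNGAAA, a repeat of the kind that interferon-activated transcription factors bind, and for its shorter form AAANNGAAA, which lies within every match of the longer one. The sequences below are the parts of 5 promoters around their matches, written 5′ to 3′ on the strand of the gene, with matched bases of either motif in capitals. They lie at chr19:34640775-34640823 (Ifit1, plus strand), chr19:34583363-34583426 (Ifit3, plus strand), chr19:34607759-34607822 (Ifit3b, plus strand), chr4:156200865-156200906 (Isg15, minus strand) and chr12:26456541-26456582 (Rsad2, minus strand).
Ifit1: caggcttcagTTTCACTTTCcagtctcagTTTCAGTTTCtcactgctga
Ifit3: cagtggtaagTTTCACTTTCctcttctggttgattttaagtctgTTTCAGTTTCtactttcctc
Ifit3b: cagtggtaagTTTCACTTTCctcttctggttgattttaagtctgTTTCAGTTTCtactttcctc
Isg15: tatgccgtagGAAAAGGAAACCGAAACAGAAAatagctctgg
Rsad2: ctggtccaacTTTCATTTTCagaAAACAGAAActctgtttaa

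The longer motif was found in 5 members, and in 3.44% of all 32851 windows. Ifit1, Ifit3 and Ifit3b each had 2 matches on the strand opposite to the gene, and the printed parts of Ifit3 and Ifit3b are the same letter for letter. In Ifit1 the matches began 104 and 85 bases before the RefSeq start, and in Ifit3 they began 156 and 122 bases before it. Isg15 had 3 overlapping matches on its own strand between 78 and 57 bases before the start, and Rsad2 had 1 match 120 bases before the start, followed by a match of the shorter motif. The shorter motif was found in 6 members, the same 5 and Uba7, and in 10.6% of all windows. The only match of Uba7 was of the shorter form, from 27 to 19 bases before the start, and is printed in capitals with 10 bases on either side (chr9:107975530-107975558, plus strand).
Uba7: ctcagtctagTTTCACTTTtggtttcctg

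Neither motif was found in the windows of Ifit2, which has 2 RefSeq starts, Cmpk2 and Herc6. For the genes that hardly differed, the bases from 150 to 31 before the start are printed for comparison, from chr12:26469065-26469184 (Cmpk2, plus strand) and chr6:57580842-57580961 (Herc6, plus strand). A match is only a match of letters, and a missing one covers only these windows.
Cmpk2: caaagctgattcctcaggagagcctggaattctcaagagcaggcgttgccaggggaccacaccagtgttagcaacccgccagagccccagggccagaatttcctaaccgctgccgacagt
Herc6: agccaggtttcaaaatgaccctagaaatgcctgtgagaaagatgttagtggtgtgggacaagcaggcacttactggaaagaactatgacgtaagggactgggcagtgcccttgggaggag

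**Figure D1:**
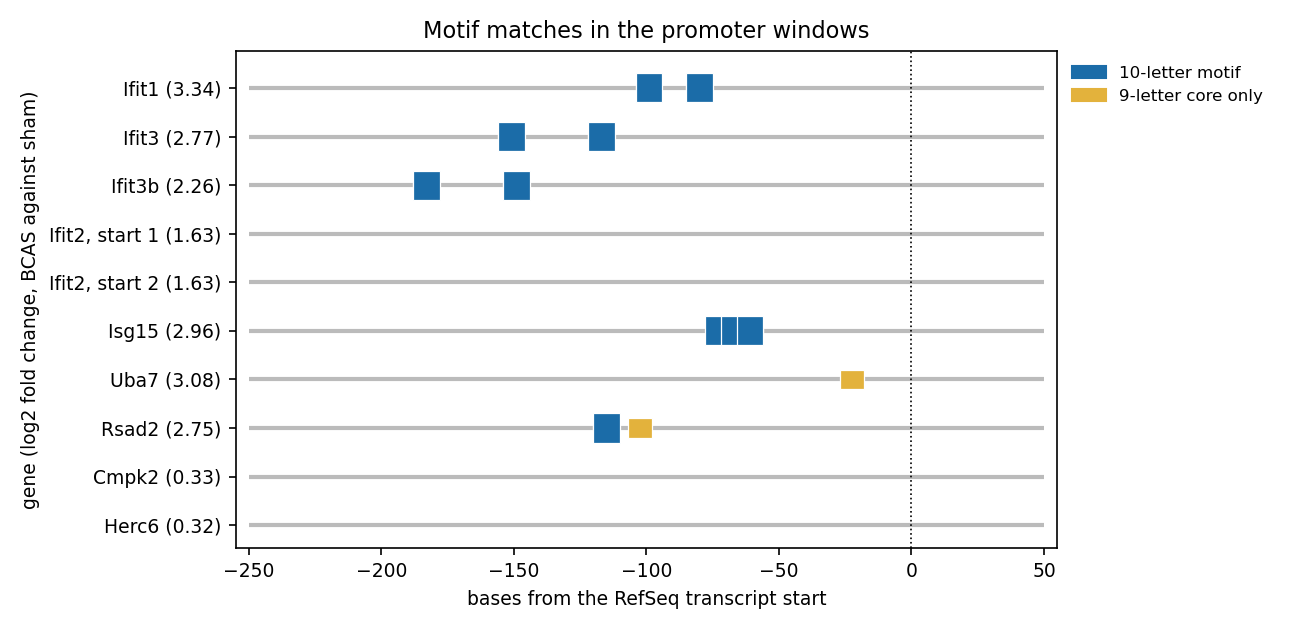
Matches of the 10-letter motif (blue) and of the 9-letter core outside it (yellow) along the RefSeq promoter windows of 9 genes; the horizontal axis gives bases from the transcript start, and the numbers in brackets are log2 fold changes of BCAS against sham. Matches lie before the start in Ifit1, Ifit3, Ifit3b, Isg15, Uba7 and Rsad2, and the windows of Ifit2, Cmpk2 and Herc6 hold none. Not drawn are Ifit1bl1 and Ifit1bl2, relatives of Ifit1 that also have matches of the 10-letter motif, with log2 fold changes of -0.09 and 0.26.

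The libraries held between 16759364 and 21794435 counted fragments, and 3 counts, the limit that a count of 0 allows, correspond to between 0.132 and 0.187 CPM (counts per 1000000 of the effective library size). Markers of cortex were present in every library, with summed levels of 6 projection neuron markers of 1968 to 2234 CPM in sham mice and 634 to 1699 CPM in BCAS mice. Sham mouse 3 stood apart, with 772.6 CPM summed over 5 choroid plexus markers against 14.8 to 70.3 CPM in the other 7 mice. BCAS mouse 4 was the highest for 5 striatal markers, with a sum of 432.7 CPM against 152.7 to 270.6 CPM in the other 7 mice. Mouse numbers below are used only as names.

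Across the whole table, 1877 of 17136 tested genes (11.0%) were higher in BCAS mice and 220 (1.28%) were lower past both thresholds (adjusted p under 0.05, log2 fold change beyond 1 in either direction). Of the 10 members, 8 were past these thresholds in the higher direction and none was in the lower one, and Cmpk2 and Herc6 were the other two. Every BCAS mouse lay above every sham mouse in the same 8 members, which was so in 18.5% of all tested genes. The rule chose the members on this contrast, so nothing is read from these shares. The median log2 fold change was 2.76 over the 10 members and -0.01 over all tested genes. In a bulk sample, more cells of a type that carries a transcript and more transcript per cell cannot be told apart.

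Among the IFIT genes, which lie side by side on chromosome 19 (mm10), Ifit1 differed the most. Ifit1 (ENSMUSG00000034459.8, chr19:34640871-34650009, plus strand) encodes a protein that binds capped RNA without methylation of its first nucleotide. Its level was 1.70, 2.50, 2.12 and 2.53 CPM in sham mice 1 to 4 and 37.1, 8.34, 23.9 and 20.1 CPM in BCAS mice 1 to 4. The lowest BCAS mouse was 3.29-fold above the highest sham mouse, and BCAS mouse 1 was 4.44-fold above BCAS mouse 2. The group means were 2.21 ± 0.388 and 22.3 ± 11.8 CPM (SD, n = 4), a log2 fold change of 3.34 (SE 0.42).

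Ifit3 (ENSMUSG00000074896.3, chr19:34583531-34588731, plus strand) and Ifit3b (ENSMUSG00000062488.9, chr19:34607970-34613401, plus strand) are close copies of each other and encode partners of IFIT1 and IFIT2. Ifit3 was at 6.88, 8.11, 5.89 and 7.84 CPM in sham mice and at 81.9, 22.4, 45.5 and 45.4 CPM in BCAS mice. Ifit3b was at 4.38, 3.24, 2.35 and 5.19 CPM in sham mice and at 27.7, 8.19, 17.2 and 19.6 CPM in BCAS mice. The groups did not overlap for either gene, and BCAS mouse 2 was again the lowest of its group for both. The log2 fold changes were 2.77 (SE 0.35) for Ifit3 and 2.26 (SE 0.38) for Ifit3b. Their transcripts were 98.0% identical over 1697 aligned bases, and 51.2% of the 50-base stretches of Ifit3 occur unchanged in Ifit3b. Reads from these stretches may have been split between the copies or left out, so the single values of both genes are uncertain. With the counts of both genes added up, the log2 fold change was 2.61. The ratio of Ifit3 to Ifit3b per kilobase of exon was 1.80, 2.87, 2.88 and 1.73 in the sham mice, against 3.39, 3.14, 3.04 and 2.66 in the BCAS mice, so the ranges overlapped.

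Ifit2 (ENSMUSG00000045932.12, chr19:34550694-34576419, plus strand), whose protein binds AU-rich RNA, had the smallest difference of the IFIT genes. It was at 17.1, 15.7, 13.7 and 19.1 CPM in sham mice and at 82.6, 31.1, 50.6 and 38.5 CPM in BCAS mice. The groups did not overlap, and the log2 fold change was 1.63 (SE 0.28), from 16.4 ± 2.28 to 50.7 ± 22.8 CPM (SD, n = 4).

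The Ifit1bl1 and Ifit1bl2 genes, relatives of Ifit1 on the opposite strand within the same cluster, were both tested and neither passed the thresholds in the edgeR fit, whose p-values were adjusted by Benjamini and Hochberg's method. Their log2 fold changes were -0.09 (SE 0.30, adjusted p = 0.836) and 0.26 (SE 0.36, adjusted p = 0.607). No unadjusted p of these 2 genes was under 0.05, and DESeq2 and limma-voom called 0 of them as well. The transcript starts of Ifit1bl2 and Ifit1 lie 128 bp apart and point away from each other, so the motif pair printed for Ifit1 also lies in the window of Ifit1bl2. Ifit1bl1 had matches of its own to the longer motif, beginning 104 bases before one of its RefSeq starts and 23 bases before the other. Per kilobase of exon, Ifit1 was 2.38, 1.88, 2.04 and 4.44 times the level of Ifit1bl2 in sham mice and 21.4, 9.33, 29.5 and 22.2 times in BCAS mice. Of the 50-base stretches of Ifit1, 7.13% occur in Ifit1bl1 or Ifit1bl2.

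In the ISG15 pathway, the modifier, its activating enzyme and its protease were all higher in BCAS mice, whereas the ligase gene overlapped between the groups. Isg15 (ENSMUSG00000035692.6, chr4:156199424-156200818, minus strand) had 33, 21, 16 and 19 counts in sham mice and 395, 81, 199 and 159 counts in BCAS mice. This was 1.31 ± 0.409 CPM against 10.2 ± 5.49 CPM (SD, n = 4), with a log2 fold change of 2.96 (SE 0.44). The lowest BCAS mouse was 2.22-fold above the highest sham mouse, and the sham values rest on few fragments.

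Uba7 (ENSMUSG00000032596.14, chr9:107975505-107984060, plus strand) encodes the enzyme that activates ISG15. Its level was 3.30, 3.43, 3.37 and 4.10 CPM in sham mice and 54.6, 12.4, 32.1 and 20.9 CPM in BCAS mice. The sham mice lay within 1.24-fold of one another, the closest of the 10 genes, while the BCAS mice spread over 4.41-fold. The log2 fold change was 3.08 (SE 0.42).

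Usp18 (ENSMUSG00000030107.10, chr6:121245906-121270917, plus strand) encodes the protease that removes ISG15 and also restrains signalling at the IFNAR2 receptor chain. It had the largest log2 fold change of the 10 genes, 3.69 (SE 0.38). It was at 1.14, 1.50, 1.09 and 0.845 CPM in sham mice and at 24.8, 7.83, 13.6 and 13.0 CPM in BCAS mice. The lowest BCAS mouse was 5.23-fold above the highest sham mouse, the widest gap among the members. Within each mouse, the ratio of Usp18 to Isg15 per kilobase of exon was 0.164, 0.310, 0.322 and 0.200 in the sham mice, against 0.387, 0.508, 0.342 and 0.407 in the BCAS mice. The ratios of the groups did not overlap, with a small margin between BCAS mouse 3 and sham mouse 3. In sham mice these ratios rest on few fragments, 14 to 24 counts of Usp18 and 16 to 33 of Isg15.

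Herc6 (ENSMUSG00000029798.11, chr6:57581000-57664632, plus strand) encodes the main ligase for ISG15 in mice. It was at 18.5, 18.4, 13.0 and 20.2 CPM in sham mice and at 33.5, 15.3, 22.0 and 16.3 CPM in BCAS mice. BCAS mice 2 and 4 lay within the sham range, so the groups overlapped, with a log2 fold change of 0.32 (SE 0.25). Without BCAS mouse 1 it was 0.04, and without sham mouse 3 it was 0.19. The ratio of Uba7 to Herc6 per kilobase of exon was 0.247, 0.259, 0.359 and 0.283 in the sham mice, against 2.26, 1.12, 2.02 and 1.78 in the BCAS mice. Without division by length, the ratio in BCAS mouse 2 was 0.808, so which gene was the higher one there depends on the lengths used. Some exon bases of Herc6, 13.7%, are shared with the overlapping gene model Gm45193 on the same strand, which had 0 counts in all 8 libraries, and pairs that fall on bases of both genes may not have been counted.

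Rsad2 (ENSMUSG00000020641.16, chr12:26442746-26456452, minus strand) encodes viperin, and Cmpk2 (ENSMUSG00000020638.8, chr12:26469204-26479837, plus strand) encodes a mitochondrial kinase of UMP and CMP. Their starts lie 12752 bp apart on opposite strands, yet the counts of only one of the pair differed widely between the groups. Rsad2 was at 2.44, 3.74, 1.83 and 1.69 CPM in sham mice and at 26.5, 8.19, 16.6 and 14.2 CPM in BCAS mice. The groups did not overlap, and the log2 fold change was 2.75 (SE 0.39). Cmpk2 was at 34.2, 31.1, 23.7 and 34.0 CPM in sham mice and at 45.5, 31.0, 41.8 and 36.2 CPM in BCAS mice. BCAS mouse 2 lay below 3 of the 4 sham mice, and the log2 fold change was 0.33 (SE 0.15), or 0.21 without sham mouse 3, the sham mouse with the lowest Cmpk2 level. The ratio of Rsad2 to Cmpk2 per kilobase of exon was 0.0687, 0.115, 0.0742 and 0.0477 in the sham mice, against 0.560, 0.254, 0.381 and 0.376 in the BCAS mice. Cmpk2 stayed the higher gene of the pair in every mouse.

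**Figure D2:**
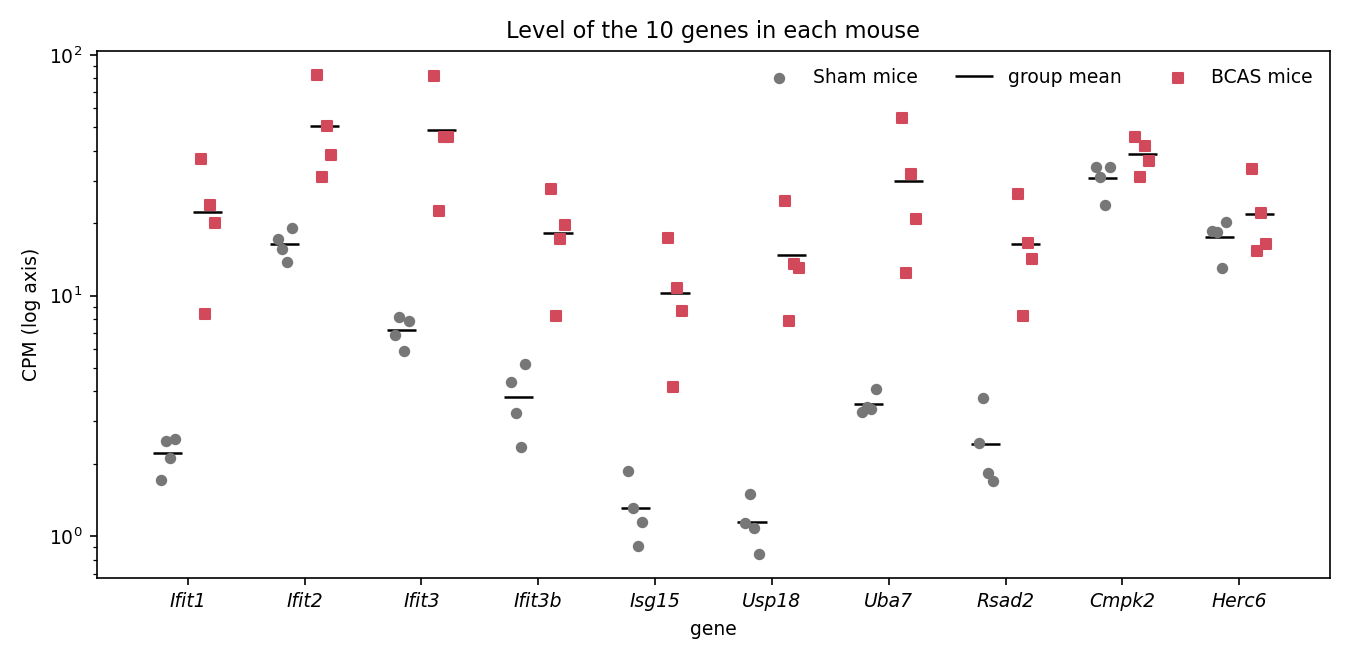
Level of each of the 10 genes in CPM (log axis) in the 4 sham mice (grey circles) and the 4 BCAS mice (red squares), with group means as black bars. The groups are separate for 8 genes and overlap for Cmpk2 and Herc6, where the log2 fold changes are 0.33 and 0.32.

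To compare levels between genes, CPM was divided by the length of all annotated exons of the gene, giving RPKM (reads per kilobase of exon, scaled to library size as in CPM). In sham mice, Cmpk2 had the highest level of the 10 genes at 7.39 ± 1.18 RPKM (SD, n = 4), above the range of every other member. Ifit2 and Ifit3 followed at 4.18 and 4.12 RPKM with overlapping ranges, and both lay above Ifit3b, Herc6 and Isg15, which were at 1.89, 1.89 and 1.74 RPKM and overlapped among themselves. Isg15 lay above the range of Ifit1, the next in the order. Ifit1, Rsad2, Uba7 and Usp18 were lowest, from 0.833 down to 0.409 RPKM, each overlapping with the next.

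In BCAS mice the order was another one, and the ranges of all genes next to each other in it overlapped. Ifit3 came first at 28.0 ± 14.1 RPKM (SD, n = 4), then Isg15 at 13.5, Ifit2 at 12.9, Cmpk2 at 9.28, Ifit3b at 9.08 and Ifit1 at 8.41 RPKM. Usp18 was at 5.30, Uba7 at 4.48, Rsad2 at 3.77 and Herc6 at 2.35 RPKM. The places of Uba7, Herc6 and Usp18 depend on the length used, since their annotated exons (6692, 9292 and 2790 bases) are longer than their longest coding transcript in GENCODE vM21 (3195, 4767 and 1771 bases).

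With the length of that 1 transcript for every gene, a choice made after seeing the data, Rsad2 came last in both groups. In sham mice it was at 0.642 RPKM beside Usp18 at 0.645, and in BCAS mice at 4.33 RPKM beside Herc6 at 4.57. In sham mice Herc6 was then at 3.68 RPKM, overlapping with Ifit3 and above the range of Ifit3b, and Uba7 was at 1.11 RPKM, above the range of Ifit1. Cmpk2 stayed first in sham mice at 9.61 RPKM and Ifit3 in BCAS mice at 28.0 RPKM.

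The BCAS mice differed among themselves in the same way for nearly all members. BCAS mouse 1 was the highest and BCAS mouse 2 the lowest of the 4 BCAS mice in all 10 genes. The full order of mice 1, 3, 4 and 2 was seen in 9 genes, and in Ifit3b mice 3 and 4 changed places. As log2 CPM above the sham mean, the median over the 8 higher genes was 3.58, 1.71, 2.88 and 2.61 in BCAS mice 1 to 4. The distance between BCAS mice 1 and 2 ran from 1.41 for Ifit2 to 2.14 for Ifit1. Such an order was not particular to these genes: of the 1877 genes called higher in BCAS mice, 86.5% had BCAS mouse 1 first and BCAS mouse 2 last, and 69.2% had the order 1, 3, 4 and 2.

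**Figure D3:**
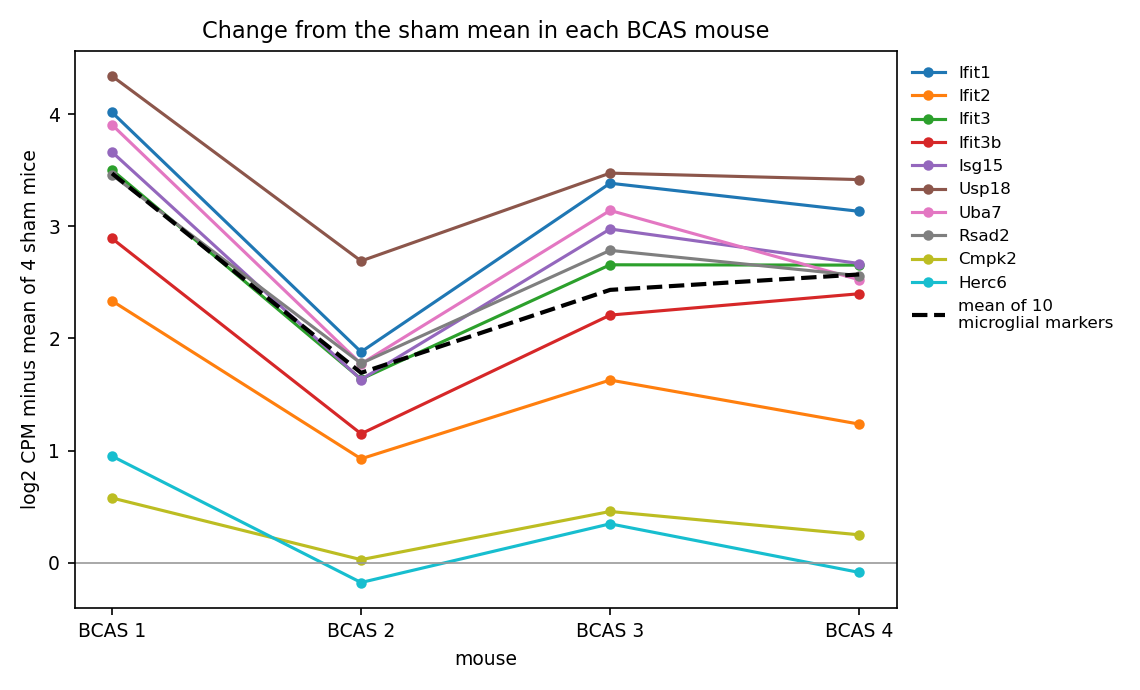
Change of each of the 10 genes from the mean of the 4 sham mice, in log2 CPM, in BCAS mice 1 to 4, with the mean of 10 microglial markers as a dashed line. All lines are highest in BCAS mouse 1 and lowest in BCAS mouse 2, Usp18 lies above the dashed line by 0.85 to 1.04, and Cmpk2 and Herc6 lie between -0.18 and 0.95.

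Markers of several cell types moved with the same groups. All 10 microglial markers were called higher in BCAS mice, and their summed level went from 385 to 462 CPM in sham mice up to 1502 to 5471 CPM in BCAS mice. Their mean log2 rise above the sham mean was 3.47, 1.69, 2.43 and 2.57 in BCAS mice 1 to 4, and 9 of the 10 had the order of mice 1, 4, 3 and 2. Of 7 monocyte and neutrophil markers, 2 were tested and both were called higher, with sums of 0.724 to 1.62 CPM in sham mice and 3.66 to 81.6 CPM in BCAS mice, and Ly6g was at 0 in all libraries. Of 6 T and NK cell markers, 2 were tested and called higher, with sums of 2.12 to 4.87 CPM and 5.15 to 53.6 CPM. Of 6 astrocyte markers 2 were called higher, with sums of 1966 to 2183 CPM and 3209 to 6571 CPM. Among 6 neuronal and 6 cortical projection neuron markers, 1 of each list was called lower, and the lists share Slc17a7. The median log2 fold changes of these lists were -0.83 and -0.92. Sums of the neuronal markers were 7288 to 8838 CPM in sham mice and 2671 to 6125 CPM in BCAS mice. The part of these cell types in the members' differences was not tested.

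Set beside the microglial mean, the members differed in sign. Usp18 exceeded it by log2 differences of 0.87, 1.00, 1.04 and 0.85 in mice 1 to 4, and Ifit1 by 0.54, 0.19, 0.95 and 0.56. Ifit3 had differences of 0.03, -0.06, 0.22 and 0.08, whereas its close copy Ifit3b lay below the mean in all 4 mice, by -0.58, -0.54, -0.22 and -0.17. Isg15, from -0.06 to 0.54, Uba7, from -0.05 to 0.71, and Rsad2, from -0.01 to 0.35, changed sign between the mice. Ifit2 lay below it in all 4 mice, by -1.14, -0.77, -0.80 and -1.33, Cmpk2 by -2.89, -1.67, -1.98 and -2.32, and Herc6 by -2.52, -1.87, -2.09 and -2.66. The comparison is with the mean of the 10 markers only, not with single markers.

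The other enzymes and receptors of the ISG15 pathway were given by a list of 9 genes, of which 4 were called higher, against 11.0% of all tested genes, and none lower, with a median log2 fold change of 0.10. Itgb2 and Itgal encode the chains of LFA-1, the receptor for free ISG15 on leukocytes, and were higher by log2 fold changes of 4.43 (SE 0.45, adjusted p = 0.00146) and 3.62 (SE 0.80, adjusted p = 0.0124). With limma-voom, Itgal was not called (log2 fold change 3.12, adjusted p = 0.0884), which left 3 called genes in the list. Trim25, an ISG15 ligase as well as a ubiquitin ligase, was higher by 2.18 (SE 0.32), with an adjusted p of 0.00312. Ube2l6, the conjugating enzyme between Uba7 and the ligases, was higher by 1.98 (SE 0.42), with an adjusted p of 0.0105. Among the genes not called, the proteases Usp5 and Usp14, which can cleave ISG15, had log2 fold changes of -0.34 (SE 0.13) and -0.48 (SE 0.16), and the ligase Arih1 had -0.17 (SE 0.07). With adjusted p alone, 6 of the 9 were under 0.05, and the 2 lower ones were Usp14 (adjusted p = 0.0454) and Usp13, with a log2 fold change of -0.54 (SE 0.17, adjusted p = 0.0415). Usp13, named after its values were seen, encodes another deubiquitinase. Usp5 had an adjusted p of 0.0676. Of all tested genes, 32.0% had an adjusted p under 0.05 in either direction and 12.8% were lower at that level, and 46.2% had an unadjusted p under 0.05. Adjusted p-values, here and below, came from the quasi-likelihood test of edgeR and were adjusted over all tested genes.

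Upstream of the members, 6 of 12 genes from the interferon receptors to their transcription factors were called higher, against 11.0% of all tested genes, and none lower, with a median log2 fold change of 1.01. The 5 with the smallest adjusted p were Irf7, a factor that amplifies interferon production, at 4.10 (SE 0.58, adjusted p = 0.00280), Irf9, a DNA-binding factor of interferon signalling, at 2.24 (SE 0.32, adjusted p = 0.00280), Ifnar2 at 1.78 (SE 0.28, adjusted p = 0.00408), Ifngr1 at 2.05 (SE 0.34, adjusted p = 0.00476) and Irf1 at 1.74 (SE 0.33, adjusted p = 0.00712). Stat2, named to complete the 6, was at 1.15, and at 0.91 and no longer called without BCAS mouse 1, which left 5 called genes. Without BCAS mouse 2, Tyk2 was called as well. With adjusted p alone, 9 of the 12 were under 0.05, against 32.0% of all tested genes. Beside the 6 called, these were Tyk2 at 0.87 (SE 0.22, adjusted p = 0.0203) and, named after their values were seen, Ifngr2 at 0.55 (SE 0.13, adjusted p = 0.0153) and Irf3 at 0.78 (SE 0.23, adjusted p = 0.0315). The lists were chosen with earlier results known, so nothing particular to them is read from these shares. Jak1, the kinase shared by the interferon receptors, was not called, with 0.02 (SE 0.09, adjusted p = 0.872), nor was Ifnar1, with 0.45 (SE 0.15, adjusted p = 0.0526), nor Jak2, with 0.35 (SE 0.16, adjusted p = 0.118).

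The interferons themselves were hardly counted. Of 21 listed interferon genes, 18 had no count in any library, which allows up to 0.132 to 0.187 CPM per library, and none passed the filter on low counts. Ifng had 1 count in sham mouse 2 and 3, 1, 4 and 0 counts in BCAS mice 1 to 4. Ifnk had 1 count in sham mouse 4 and 4 counts in BCAS mouse 3, and Ifnz had 1 count in BCAS mouse 3. Differences in interferon transcripts were not detectable at this depth.

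Among 6 genes that IFIT proteins bind or act through, 1 was called higher, against 11.0% of all tested genes. It was Mavs, with a log2 fold change of 1.30 (SE 0.26, adjusted p = 0.00946), and the median of the 6 was 0.22. MAVS is the mitochondrial adaptor of cytosolic RNA sensors. The translation factor subunit genes Eif3c and Eif3e, whose proteins IFIT1 and IFIT2 can bind, had log2 fold changes of 0.00 (SE 0.08) and 0.25 (SE 0.09), and the kinase gene Tbk1 had 0.06 (SE 0.07).

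Of 7 genes for proteins that viperin binds or for the supply of CTP, edgeR called 0, and so did DESeq2 and limma-voom. Of all tested genes, edgeR called 11.0% higher and 1.28% lower. The median log2 fold change of the 7 was 0.02. The unadjusted p was under 0.05 for 4 of the 7, and the adjusted p as well, against 46.2% and 32.0% of all tested genes. Hadhb, a subunit of the mitochondrial trifunctional protein that viperin binds, had a log2 fold change of 0.50 (SE 0.10, adjusted p = 0.0104). Irak1 and Vapa had 0.39 (SE 0.11, adjusted p = 0.0317) and -0.29 (SE 0.09, adjusted p = 0.0457). Traf6, named after its values were seen, had 0.40 (SE 0.11, adjusted p = 0.0250). Of 7 genes of mitochondrial nucleotide supply, the pathway in which CMPK2 acts, 1 was called higher, against 11.0% of all tested genes. It was Samhd1, at 1.82 (SE 0.34, adjusted p = 0.00673), whose protein breaks down deoxynucleotides. The median of the 7 was 0.11. With adjusted p alone, 2 of the 7 were under 0.05, against 32.0% of all tested genes. Beside Samhd1 this was Dguok, named after its values were seen, at 0.49 (SE 0.13, adjusted p = 0.0235). The carrier gene Slc25a36 had 0.08 (SE 0.07), the ribonucleotide reductase subunit gene Rrm2b had -0.09 (SE 0.10) and the mitochondrial thymidine kinase gene Tk2 had 0.11 (SE 0.08).

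Of the 4 other HERC genes tested, edgeR, DESeq2 and limma-voom called 0. The unadjusted p of edgeR was under 0.05 for 3 of them, against 46.2% of all tested genes. The adjusted p was under 0.05 for 2, both of them lower, and 12.8% of all tested genes were lower at that level. The median log2 fold change of the 4 was -0.34. Herc3 had a log2 fold change of -0.83 (SE 0.23, adjusted p = 0.0263), Herc1 had -0.40 (SE 0.13, adjusted p = 0.0423) and Herc2 had -0.27 (SE 0.09, adjusted p = 0.0523). Without BCAS mouse 2, Herc3 and, in the viperin list, Fdps passed the thresholds in the lower direction.

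**Figure D4:**
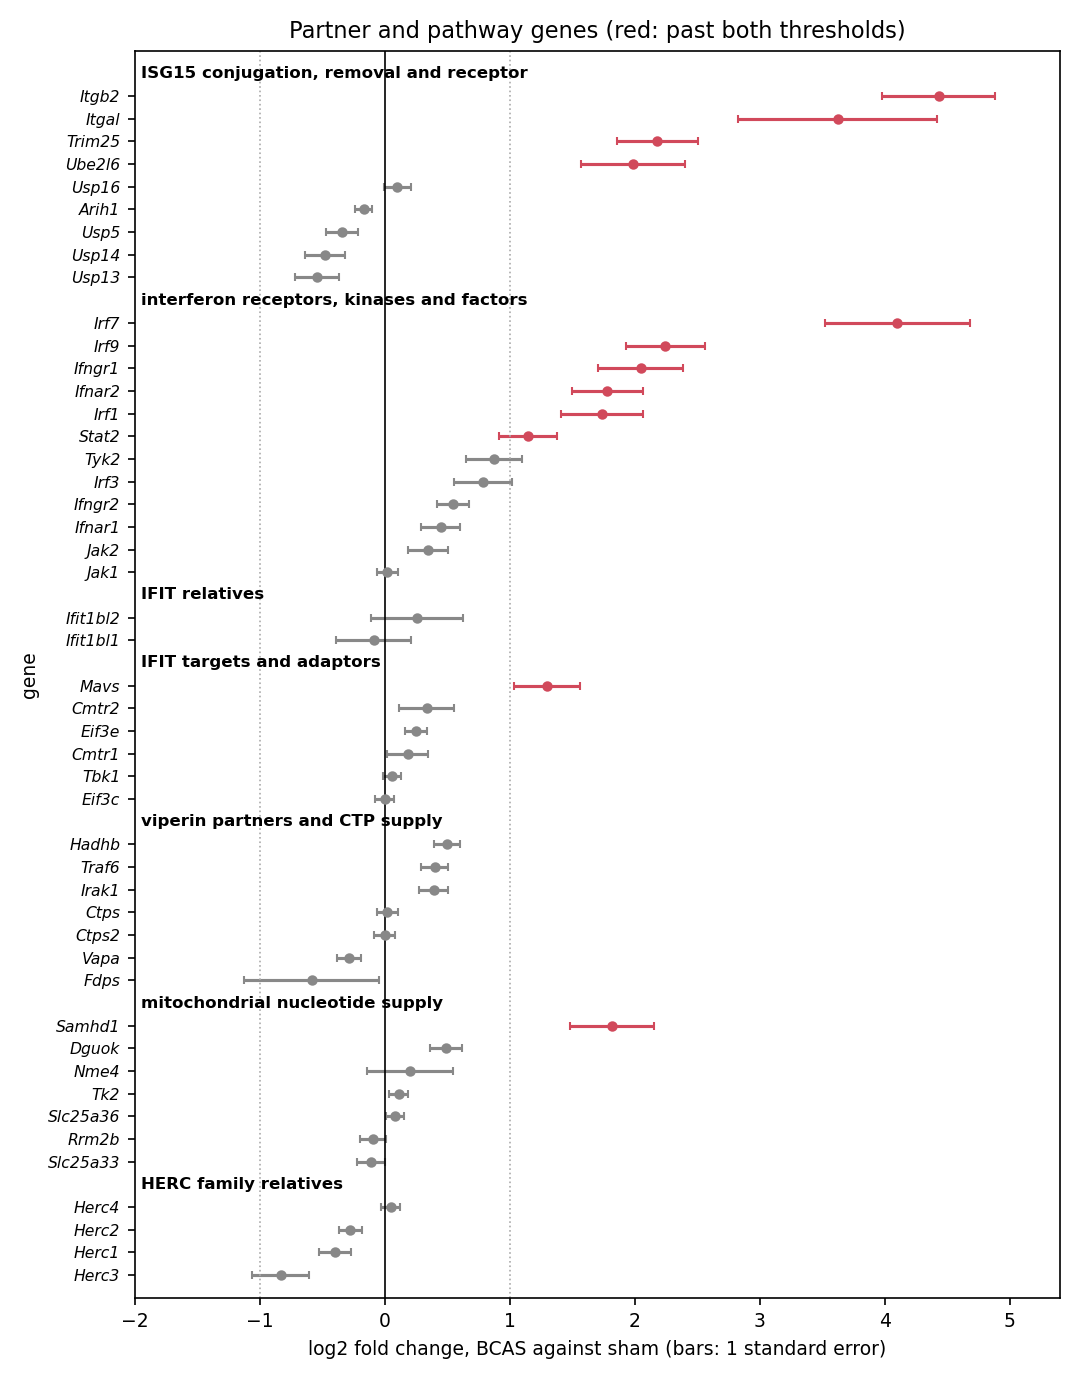
Log2 fold changes of BCAS against sham with 1 standard error for the tested genes of 7 lists, red where both thresholds were passed and grey otherwise; dotted lines mark absolute log2 fold changes of 1. The red points are all to the right of 0: 4 of 9 ISG15 genes, 6 of 12 receptor and factor genes, Mavs and Samhd1.

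Genes near the members on the chromosomes were compared next, since the IFIT genes and the pair of Rsad2 and Cmpk2 are clustered. Within 100 kb of a member, 34 other genes were tested, of which 5 (14.7%) were called higher, against 11.0% of all tested genes, and their median log2 fold change was 0.05. None was called lower by edgeR, DESeq2 or limma-voom. By edgeR, 6 were lower at an unadjusted p under 0.05 and 2 at an adjusted one. Of all tested genes, 21.4% and 12.8% were lower at these levels. At the IFIT cluster, which spans 99.3 kb, 4 of 6 neighbours were called, and among the 28 at the other members 1 was.

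The called neighbours of the IFIT genes were Ch25h, which makes 25-hydroxycholesterol, at a log2 fold change of 5.11 (SE 0.54, adjusted p = 0.00146), Lipa, the lysosomal acid lipase gene, at 2.26 (SE 0.41, adjusted p = 0.00650), Slc16a12 at 1.05 (SE 0.24, adjusted p = 0.0134) and Gm26902 at 1.03 (SE 0.28, adjusted p = 0.0254). Of these, Gm26902 and Slc16a12 were near the threshold on the fold change, and without sham mouse 4 or without BCAS mouse 1 neither was called, which left 3 called neighbours. Gm26902 overlaps Ch25h on the other strand, and the counting used no strand option. The other called neighbour was Inka1, at 1.85 (SE 0.33, adjusted p = 0.00615), whose 3′ end faces that of Uba7 from the other strand at a distance of 0.163 kb. The gene beside Isg15, Agrn, had -0.04 (SE 0.07, adjusted p = 0.702), the nearest tested gene beside Rsad2 other than Cmpk2, Rnf144a, had -0.07 (SE 0.09, adjusted p = 0.565), and Slc6a13 near Usp18 had 0.95 (SE 0.15, adjusted p = 0.00380) without passing the fold threshold.

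The remaining tested neighbours were not called. Near Isg15, they were Rnf223, Perm1, AW011738, Plekhn1, Noc2l, Samd11 and 9430015G10Rik. Near Usp18 they were Pex26, Tuba8 and Slc6a12, and near Uba7 they were Mon1a, Mst1r, Camkv, Traip, Cdhr4, Ip6k1, Gmppb, Rnf123 and Amigo3. Near Herc6, Ppm1k and Vopp1 were lower at an adjusted p under 0.05 by log2 fold changes of -0.53 (SE 0.15, adjusted p = 0.0305) and -0.61 (SE 0.18, adjusted p = 0.0354), and Pyurf, Lancl2 and Gm37397 were not. Herc6 thus had no called neighbour.

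**Figure D5:**
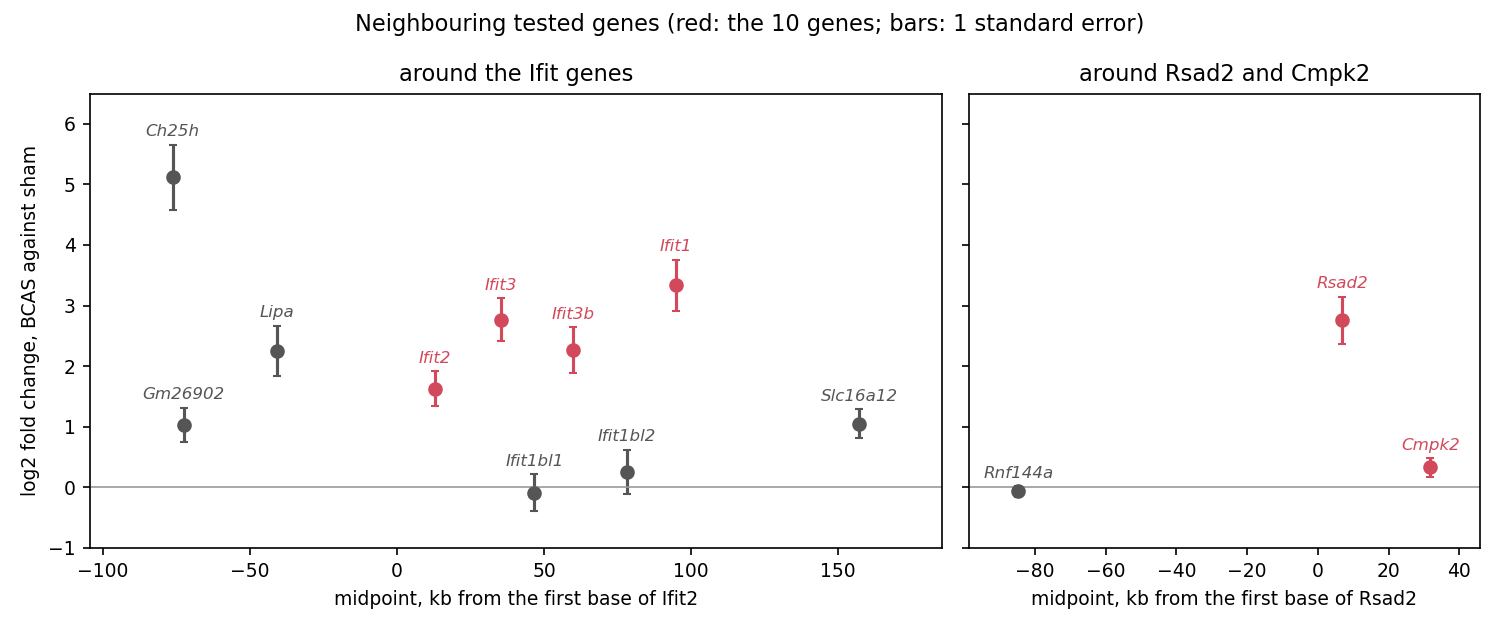
Log2 fold changes of BCAS against sham, with 1 standard error, of the tested genes around the IFIT cluster (left) and around Rsad2 and Cmpk2 (right), by the distance of the gene's midpoint from the first base of Ifit2 or Rsad2 in kb; members are red and other genes grey. Ifit1bl1 and Ifit1bl2 lie near 0 between Ifit3 and Ifit1, and Cmpk2 lies at 0.33 beside Rsad2 at 2.75.

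The genes whose levels over the 8 mice were most like those of 3 members were found by the root-mean-square difference of log2 CPM, each gene centred on its own mean. Closest to Isg15 were Rhoh (0.0886), Gsdmd (0.142) and Tlr6 (0.159). Closest to Rsad2 were Gmfg (0.136), Tspo (0.138) and Lpar5 (0.164). Among the members, Ifit3 was the closest to both, at rank 44 for Isg15 (0.262) and rank 24 for Rsad2 (0.278) among all other tested genes. Closest to Cmpk2 were Timeless (0.0527), Gatm (0.0653) and Trp53inp2 (0.0660), and Rsad2 was at rank 16561, with a difference of 1.23. The likeness rests on 8 mice in 2 groups, so it follows mostly the size of the group difference.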

How the data were processed

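Messenger RNA purified from total RNA of the right cerebral cortex of 4 sham and 4 BCAS mice was sequenced in paired reads. The methods name a strand-specific ligation step in library preparation, but the counting used no strand option. Per the labels and methods, the authors trimmed the reads with Trim Galore, aligned them to mm10 with HISAT2 and sorted them with SAMtools 1.9. The deposited values are raw counts per gene, without normalization; the file headers name featureCounts 2.0.1 on exons of GENCODE vM20, with no strand or multi-mapping option in the command, whereas the labels name version 1.6.3 and the methods RefSeq genes. Symbols were matched by gene identifier for 54723 of 54752 genes (99.95%).

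The counts were fitted with edgeR 4.0.16 in R 4.3.3 (TMM normalization, filterByExpr with minimum count 10 and minimum total 15, quasi-likelihood test, Benjamini-Hochberg adjustment over the 17136 genes tested), with all 8 libraries and no covariate. The thresholds for a call were 0.05 for the adjusted p and 1 for the absolute log2 fold change. Log2 CPM used a prior count of 2. Depth sets the precision: 3 counts were 0.132 to 0.187 CPM, and limits of this kind cover counting error only. The scripts were tested on simulated data. Alternatives were DESeq2 1.42.0, limma-voom (limma 3.58.1), other size factors and filters, a replicate block, and each mouse left out.

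The members and lists were chosen with earlier results of these data known. Named were all 10 members, up to 5 called and 3 uncalled genes per list (by adjusted p and by mean CPM), every interferon gene with a count, tested genes within 100 kb of a member and the 3 genes most like Isg15, Rsad2 and Cmpk2. Of 4 listed IFIT relatives, 2 were matched by symbol. One gene was left out of the receptor and factor list, whose 12 remaining genes were all tested, and is not reported here. Of the other marker lists, 0 of 6 endothelial, 0 of 6 oligodendrocyte, 0 of 5 striatal and 0 of 5 choroid plexus genes were called. Sequences were from RefSeq, and figures were drawn with matplotlib 3.10.9.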

Additional observations from a re-analysis of the deposited data

Results flagged for a closer look

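Among the 20 groups of 4 values tested for a value far from the rest (10 genes in 2 groups), Uba7 in sham mice was the only one past the limit. Sham mouse 4, at 4.10 CPM, stood away from the other 3 sham mice, which were at 3.30 to 3.43 CPM. Its gap to the nearest of them was 0.832 of the whole range, just above Dixon's 95% critical value for 4 samples. About 1 in 20 such groups passes the limit by chance. The value lies far below the lowest BCAS mouse, at 12.4 CPM.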

How the results depend on the processing

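The 8 higher members were past the thresholds, and Cmpk2 and Herc6 short of them, under the alternatives run (other size factors and filters, DESeq2, limma-voom, the replicate block and each mouse left out), but the members were chosen on this contrast, so this is no sign of stability. With 1 transcript's length in place of all exons (added after seeing the data), the last gene in RPKM became Rsad2 in both groups. With no threshold on the fold change, 5490 genes passed in place of 2097, 8 neighbours in place of 5, 4 viperin-list genes in place of 0, 2 mitochondrial nucleotide genes in place of 1 and 2 HERC relatives in place of 0. With single mice left out, counts ran from 1644 (without BCAS mouse 1) to 2967 genes, from 3 to 6 neighbours (added after seeing the data), from 5 to 7 receptor and factor genes, and from 0 to 1 in both the viperin and the HERC list. Of 704 values of listed genes, 699 kept their call, Itgal lost it with limma-voom (adjusted p = 0.0884) and Stat2 without BCAS mouse 1 (log2 fold change 0.91), Fdps, Herc3 and Tyk2 gained it without BCAS mouse 2, and none reversed. The causes were not tested.

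No pairing of mice by replicate number was seen: deviations of same-numbered mice correlated at -0.05, -0.10, -0.01 and 0.00. For differently numbered mice the values ran from -0.11 to 0.12. With 4 mice per group, this measure cannot show that no pairing existed. With the replicate number as a block, 1809 genes and the same number of members (8) were called, and the block changed no call of a listed gene. Of the sham mice, the counts of Isg15 (16 to 33) and Usp18 (14 to 24) limit how finely their folds can be told apart.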
